A study of Mus musculus with 6 samples.

Results

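Toll-like receptors (TLRs) sense molecules of microbes and of damaged cells. The 10 genes described here are 7 receptors (Tlr1, Tlr2, Tlr3, Tlr4, Tlr6, Tlr7 and Tlr9), the co-receptor Cd14, the chaperone Unc93b1 and the adaptor Myd88. They were taken by symbol from a spleen table of 40808 genes, and each of the 10 had a row. The table holds 6 libraries of poly(A) RNA, read at the 3′ ends of transcripts, which the labels say came from leukaemia cells in the spleens of mice with a bone marrow transplant; they name no lineage for the leukaemia. In 3 libraries (replicates 4, 5 and 6) the mice had no Dox, and in 3 (replicates 10, 11 and 12) they had Dox. The labels give no dose, duration, transgene, genotype, strain, age or sex, and they do not say whether RNA was pooled. They also do not say whether libraries came from separate mice, so p-values measure only the spread between these libraries.

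In the textbook scheme, TLR1, TLR2, TLR4 and TLR6 work at the cell surface. TLR2 pairs with TLR1 or TLR6 to bind bacterial lipopeptides, and TLR4 binds lipopolysaccharide, which CD14 hands over. TLR3, TLR7 and TLR9 sit in endosomes and sense double-stranded RNA, single-stranded RNA and unmethylated DNA; UNC93B1 carries them there from the endoplasmic reticulum. All these receptors except TLR3 signal through MYD88. In spleen, B cells and plasmacytoid dendritic cells are known for TLR7 and TLR9, and monocytes, macrophages and neutrophils for TLR2, TLR4 and CD14.

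The libraries held 5541486 to 7729988 counts without Dox and 6498193 to 8725767 with Dox. Levels below are normalized CPM, read counts relative to a library total that was adjusted for composition by TMM; because 1 fragment per transcript is read, they are not divided by length. On this scale a floor of 3 counts is 0.309 to 0.608 CPM, with a mean of 0.521 CPM over the libraries without Dox, and it covers counting error only. Replicates with Dox varied more: edgeR's common biological coefficient of variation over the tested genes was 0.516 among them and 0.190 among those without Dox. Xist had 193 to 324 counts without Dox and 3347 to 5669 with Dox, while 4 Y-linked genes together had 545 to 801 counts and 0 counts. The mice were transplanted, so these reads may come from donor or host cells, and the labels give the sex of neither. Dox, sex and the share of donor and host cells therefore cannot be told apart in any result below.

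The marker lists of the 2 groups differed as well. The 9 T cell markers summed to 1393 to 1498 CPM without Dox and 117 to 132 CPM with Dox. The 8 B cell markers summed to 29.3 to 36.6 CPM without Dox and 1681 to 1801 CPM with Dox, and the 10 neutrophil markers to 51.4 to 67.6 and 2017 to 2206 CPM. All 8 B cell markers and all 10 neutrophil markers were higher with Dox, and all 9 T cell markers were lower, at an adjusted p under 0.05 (edgeR quasi-likelihood test, Benjamini-Hochberg over 14110 genes). Over all genes tested 45.6% were called, with 23.6% higher and 22.1% lower, the background for the calls in each marker list. Of the 10 monocyte and macrophage markers 3 were higher and 2 lower, near that background. The list summed to 581 to 715 CPM without Dox and 759 to 1026 CPM with Dox. Of 7 conventional dendritic cell markers 5 were tested and higher (at most 11.6 CPM in sum without Dox and at least 73.0 CPM with Dox), and Cd209a had 0 counts with Dox. Some of these calls rest on the filter on low counts: 3 of the 5 called conventional dendritic cell markers (Flt3, Xcr1 and Clec9a), 5 of the 10 neutrophil markers, 1 of the 8 B cell markers (Cr2) and Siglech reached its level (1.47 CPM before TMM, needed in 3 libraries) in 0 libraries without Dox, so they could only be called higher. The plasmacytoid list was mixed: Siglech and Tcf4 were higher, Ccr9 was lower, Bst2 was not called, and Klk1, with 0 counts without Dox, was not tested. Its sum was 229 to 277 CPM without Dox and 443 to 455 CPM with Dox. The other lists moved less in sum, but their markers moved in opposite directions. The 6 erythroid markers summed to 56900 to 62360 against 69170 to 74450 CPM (2 higher, 2 lower). Hba-a1 averaged 30650 CPM without Dox and 59080 CPM with Dox, and Hbb-bs 28820 and 12250 CPM. All haemoglobin genes took 8.61% to 9.04% of counts without Dox and 14.1% to 15.9% with Dox. The 7 endothelial and stromal markers summed to 181 to 205 against 192 to 286 CPM (Kdr and Stab2 higher, Col1a1 and Pdgfrb lower). Ly6g had 0 counts in each library without Dox. Ptcra, a gene of immature T cells, had 210, 114 and 166 counts without Dox and 8, 0 and 0 with Dox. The libraries with Dox thus differ in markers and in Y-linked reads from those without, although the labels call both leukaemia cells, and whether their RNA came from leukaemia cells was not tested. In such bulk RNA, fewer cells of a type and less RNA per cell cannot be told apart, and the part these lists play in the receptor results was not tested.

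**Figure D1:**
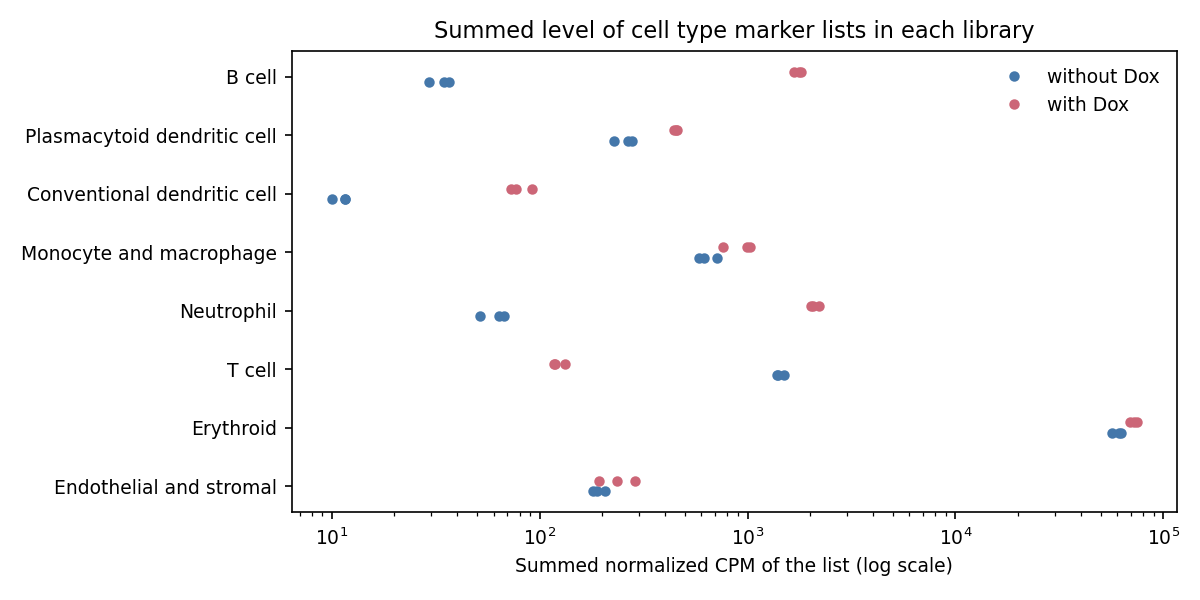
Summed normalized CPM (log scale) of 8 cell type marker lists, 1 point per library, blue without Dox and red with Dox. B cell sums lie at 29.3 to 36.6 CPM without Dox and 1681 to 1801 CPM with Dox, and T cell sums at 1393 to 1498 and 117 to 132 CPM.

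Upstream sequence is shown for 4 members, since the results contrast members that were called with members of the same family that were not. RefSeq (GRCm38.p6) promoter windows matched 6 of the 10 members (Tlr1, Tlr2, Tlr3, Tlr6, Tlr9 and Myd88). The 120 bases before a listed start are printed 5′ to 3′ on the gene's strand, with capitals at matches to GAAANNGAAA, the core of an interferon-stimulated response element, or GAGGAAGT, a PU.1-type ETS motif, on either strand.
Tlr1, chr5:64933559-64933678 (minus strand): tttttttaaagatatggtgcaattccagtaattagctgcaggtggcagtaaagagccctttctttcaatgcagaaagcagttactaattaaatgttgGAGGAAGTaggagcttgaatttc
Myd88, chr9:119340019-119340138 (minus strand): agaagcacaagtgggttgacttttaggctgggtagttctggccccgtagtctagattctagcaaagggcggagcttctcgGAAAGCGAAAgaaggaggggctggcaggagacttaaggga
Tlr6, chr5:64959167-64959286 (minus strand): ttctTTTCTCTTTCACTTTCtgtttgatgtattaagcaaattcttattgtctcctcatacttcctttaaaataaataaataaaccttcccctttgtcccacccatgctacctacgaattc
Tlr9, chr9:106222478-106222597 (plus strand): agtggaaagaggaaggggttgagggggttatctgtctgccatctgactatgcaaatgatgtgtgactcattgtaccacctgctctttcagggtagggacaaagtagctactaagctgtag
In Myd88 the match to GAAANNGAAA began at position -40 from the start, and in Tlr6 overlapping reverse-strand matches began at -116 and -110. In Tlr1 the match to GAGGAAGT began at -23; Tlr9 has a reverse-strand match to it at 10, beyond the stretch shown. Of 32851 promoter windows of the same 300 bases, 3.44% hold GAAANNGAAA and 3.2% hold GAGGAAGT. The windows of Tlr2 and Tlr3 hold neither, nor do those of a further listed start of Tlr1 and of Tlr6. Of the genes with a match, Myd88 and Tlr1 were higher with Dox, Tlr6 was not called and Tlr9 was not tested. A match describes letters and is not evidence of a binding site.

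Of the 10 genes, 5 were higher with Dox at an adjusted p under 0.05 (Tlr1, Tlr3, Tlr7, Unc93b1 and Myd88), 0 were lower, 3 were tested and not called (Tlr2, Tlr4 and Tlr6), and 2 had too few counts to be tested (Cd14 and Tlr9). Across all 14110 genes tested 45.6% were called, with 23.6% of the genes tested higher and 22.1% lower, so a called gene is common in these libraries. Groups did not overlap in 59.6% of tested genes (30.0% higher and 29.6% lower with Dox), the background for the separate groups below. The same 5 of the 8 tested members had separate groups, and so did Tlr9, untested, at 0 counts against 1 to 7. The filter asks for 1.47 CPM, unscaled, in 3 libraries. Tlr3 reached it in 0, Tlr7 in 1 and Tlr1 in 2 libraries without Dox, so these 3 entered the test through the group where they were high. Unc93b1 and Myd88 reached it in all 6 libraries, and the count of 5 is given as a description. At an unadjusted p under 0.05 the count of lower members was also 0, and DESeq2 and limma-voom also called 0 lower.

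**Figure D2:**
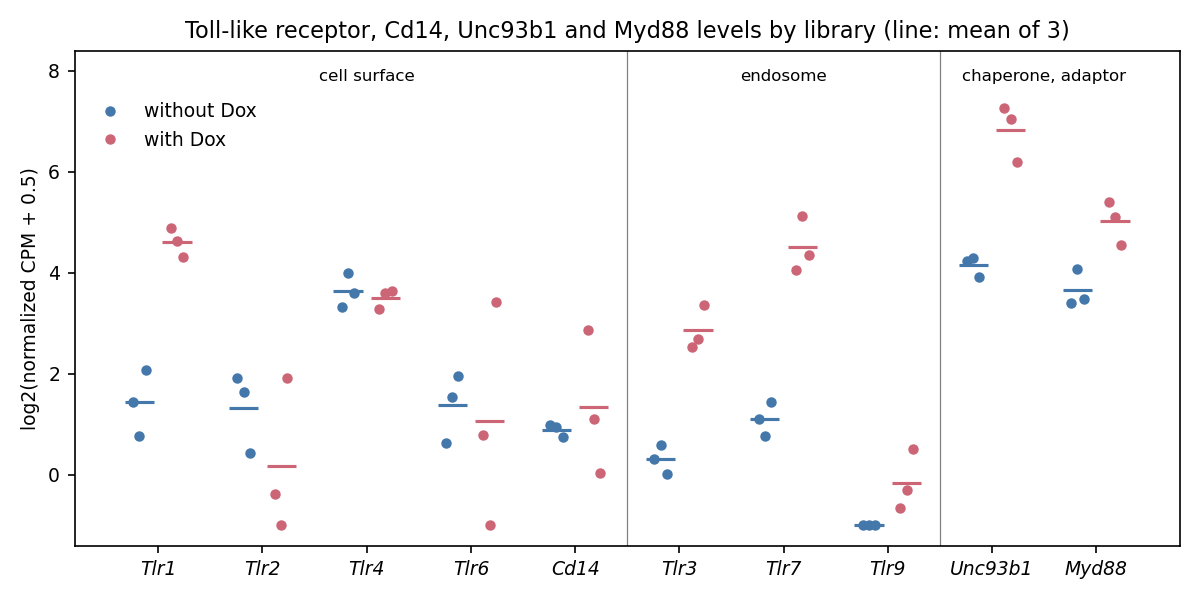
Level of each of the 10 genes in each library as log2(normalized CPM + 0.5), 1 point per library, blue without Dox and red with Dox, with a line at the mean of 3. Points of Tlr1, Tlr3, Tlr7, Unc93b1 and Myd88 lie higher with Dox without overlap, while those of Tlr2, Tlr4, Tlr6 and Cd14 overlap; Tlr9 lies near the floor.

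Among the surface receptors, Tlr1 alone was called. Tlr1 (Entrez 21897, chromosome 5, 64924680 to 64933600 in GRCm38.p6, minus strand) had levels of 2.24, 1.22 and 3.73 CPM without Dox and 29.0, 24.2 and 19.5 CPM with Dox. The groups were far apart. This was a rise of 3.32 ± 0.44 (log2 fold change ± SE; adjusted p = 0.000232, edgeR). Tlr1 rested on 6 to 22 counts per library without Dox and 148 to 235 with Dox.

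Tlr2, the partner that TLR1 needs to bind lipopeptides, was not called. Its levels were 3.28, 2.64 and 0.848 CPM without Dox and 0.272, 0 and 3.30 CPM with Dox, from 0 to 25 counts. Replicate 12 was as high as the highest library without Dox, whereas replicates 10 and 11 were at or below the floor. Its log2 fold change of -0.93 ± 1.38 (SE) did not pass the threshold (adjusted p = 0.612, edgeR). Its size moved with the libraries and the method: it was -4.00 without Dox replicate 12 (adjusted p = 0.0669), -0.490 without Dox replicate 10, -0.363 without Dox replicate 11 and -0.617 without no_Dox replicate 4, and -2.61 with limma-voom on all 6 libraries (adjusted p = 0.201).

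Tlr6, the other partner of TLR2, had 1.04, 2.43 and 3.39 CPM without Dox and 1.22, 0 and 10.3 CPM with Dox. Replicate 12 was again the high library of its group. The log2 fold change of 0.74 ± 1.36 (SE) did not pass the threshold (adjusted p = 0.685, edgeR) and turned to -1.93 without replicate 12 (adjusted p = 0.329) and to -1.57 with limma-voom (adjusted p = 0.441). No direction is given for Tlr6. Tlr1 and Tlr6 are neighbours on chromosome 5 with related coding sequences, but in the last 500 bases of the longest coding transcripts 0 of 451 windows of 50 bases of Tlr1 and 2 of 451 of Tlr6 occurred in another gene, the latter in Ctsq. Reads at these ends could thus be told apart by sequence. RefSeq models also let the 5′ end of Tlr6 overlap Fam114a1 on the opposite strand, which had 8 to 21 counts without Dox and 141 to 284 with Dox.

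Tlr4, the lipopolysaccharide receptor, showed the smallest difference of the tested members. It had 9.55, 15.4 and 11.7 CPM without Dox and 9.25, 11.7 and 11.99 CPM with Dox, from 64 to 114 counts per library. The groups overlapped throughout. The difference between groups was -0.15 ± 0.35 (log2 fold change ± SE; adjusted p = 0.753, edgeR). Scaled by library totals alone, which shifted the all-gene median by 0.31, the difference was 0.16. Relative to the genes as a whole, Tlr4 thus lay on the low side under both scalings, by less than its error.

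Cd14, which presents lipopolysaccharide to the TLR4 complex and marks monocytes and macrophages, was near the counting limit. It took 10, 7 and 7 reads without Dox, against 50, 16 and 4 with Dox, or 1.49, 1.42 and 1.19 against 6.80, 1.65 and 0.527 CPM. Replicate 10 was high and replicate 12 low, on either side of the group without Dox. Fitted without the filter on low counts, its adjusted p was 0.577 (edgeR; log2 fold change 0.996). In the same unfiltered fit the fold change turned to -0.40 without Dox replicate 10 (adjusted p = 0.885) and was 1.54 without Dox replicate 12 (adjusted p = 0.356), so no direction is given for Cd14.

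The endosomal receptors Tlr7 and Tlr3 were called, and Tlr9 was barely counted. Tlr7 (Entrez 170743, chromosome X, 167303380 to 167330574 in GRCm38.p6) had 1.64, 1.22 and 2.20 CPM without Dox and 16.2, 34.6 and 19.9 CPM with Dox. Replicate 11 was the highest, and the lowest library with Dox was well above every library without Dox. The rise of 3.78 ± 0.46 (log2 fold change ± SE, adjusted p = 0.000126, edgeR) was the largest fitted value among the 8 tested members. Its error overlapped those of Tlr1 (3.32 ± 0.44) and Tlr3 (3.19 ± 0.72). Tlr7 rested on 11, 6 and 13 counts without Dox and reached the filter's level in 1 of those libraries. Tlr7 lies on the X chromosome, whose Xist RNA also separated the groups, and the contribution of X dosage was not tested.

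Tlr3 (Entrez 142980, chromosome 8, 45395665 to 45411075) had 5, 5 and 3 counts without Dox and 39, 58 and 74 with Dox. In CPM these were 0.746, 1.013 and 0.509 against 5.31, 5.97 and 9.75, again with no overlap. The fitted log2 fold change was 3.19 ± 0.72 (SE; adjusted p = 0.00507, edgeR), with the limit that Tlr3 passed the filter only through the libraries with Dox. TLR3 is the one receptor of this family that signals without MYD88, through the adaptor encoded by Ticam1. Ticam1 itself averaged 2.20 ± 0.87 and 6.19 ± 2.15 CPM in the 2 groups (SD, n = 3) and was not called (adjusted p = 0.0944, edgeR).

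Tlr9 (Entrez 81897, chromosome 9, 106222598 to 106226876), the DNA receptor, was listed with 0 reads in every library without Dox and with 1, 3 and 7 reads in those with Dox. Only replicate 12, at 0.922 CPM, was above the floor, so no fold is given, and without a filter the adjusted p was 0.306 (edgeR). B cells and plasmacytoid dendritic cells are known for Tlr9; with Dox the B cell markers summed to 1681 to 1801 CPM, and the plasmacytoid list was mixed, with Siglech higher and Ccr9 lower. How much of the Tlr9 transcript the deposited counting covers is not given in the sources used here.

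**Figure D3:**
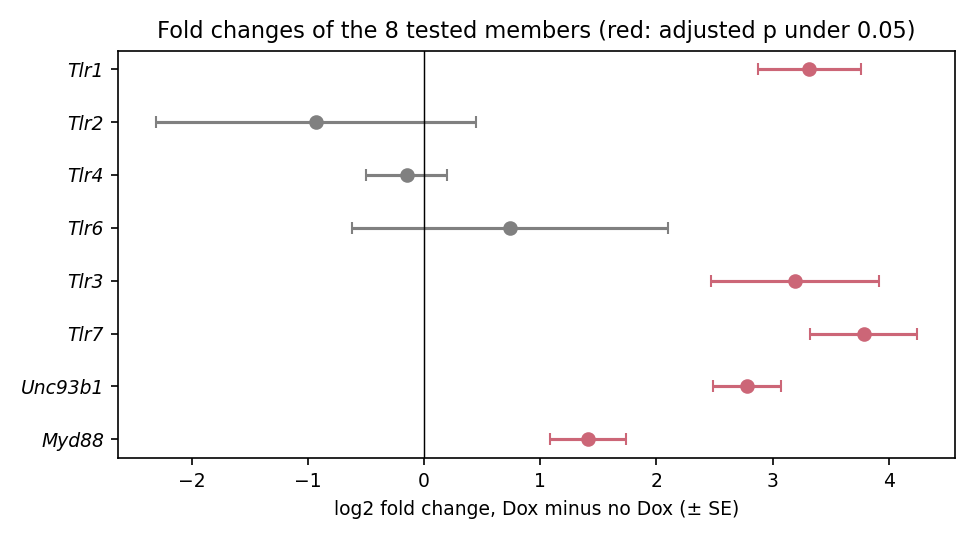
Log2 fold change, Dox minus no Dox, of the 8 tested members with its SE, red where the adjusted p was under 0.05 and grey where it was not. Tlr7 lies farthest to the right at 3.78 and Tlr4 close to 0 at -0.15; Tlr2 and Tlr6 have SEs of 1.38 and 1.36.

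Unc93b1, the chaperone of the endosomal receptors, was the most abundant of the 10 genes in each group. Unc93b1 (Entrez 54445, chromosome 19, 3935158 to 3949340) had 18.4, 19.2 and 14.6 CPM without Dox and 153.8, 131.5 and 72.7 CPM with Dox. Replicate 12 was the lowest of its group and still far above the libraries without Dox. Its rise was 2.78 ± 0.29 (log2 fold change ± SE; adjusted p = 5.47e-05, edgeR). Per count of Tlr3, Tlr7 and Tlr9 together there were 7.69, 8.64 and 5.38 counts of Unc93b1 without Dox and 7.11, 3.22 and 2.38 with Dox, and these ratios overlapped between the groups. That overlap depended on the receptors summed. With Tlr8, Tlr11, Tlr12 and Tlr13 added, the endosomal receptors had 142, 104 and 180 counts without Dox and 243, 473 and 343 with Dox. Unc93b1 had fewer counts than that sum in each library without Dox (123, 95 and 86). It had more in each library with Dox (1130, 1278 and 552). Unc93b1 was thus higher with Dox beside higher Tlr3 and Tlr7.

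Myd88, the adaptor shared by these receptors and by the receptors of interleukin-1 and interleukin-18, showed the smallest called change. Myd88 (Entrez 17874, chromosome 9, 119335934 to 119340018, minus strand) had 10.2, 16.4 and 10.7 CPM without Dox and 41.8, 34.0 and 22.9 CPM with Dox. The groups did not overlap, and the log2 fold change was 1.41 ± 0.33 (SE; adjusted p = 0.00586, edgeR). In the GENCODE annotation Acaa1a overlaps Myd88 on the opposite strand; it had 96 to 130 counts without Dox and 61 to 130 with Dox, and strand use in counting is not given. Myd88 also overlaps Slc22a14 on the same strand, which had 0 to 9 counts in any library.

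The 7 receptors were then summed by site. The surface receptors Tlr1, Tlr2, Tlr4 and Tlr6 together took 108, 107 and 116 reads without Dox, against 292, 349 and 342 with Dox. The endosomal receptors Tlr3, Tlr7 and Tlr9 together took 16, 11 and 16 reads without Dox, against 159, 397 and 232 with Dox. Both sums were higher with Dox, the endosomal one by the larger ratio. In mean CPM the surface sum went from 19.15 to 40.24 and the endosomal sum from 2.44 to 31.0. The endosomal sum was mostly Tlr7, which took 11, 6 and 13 of its reads without Dox and 119, 336 and 151 with Dox. Its difference is thus largely that of 1 gene.

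The endosomal share of these counts was 12.9% (95% exact Clopper-Pearson interval 7.56 to 20.1), 9.32% (4.75 to 16.1) and 12.1% (7.09 to 18.9) without Dox. With Dox it was 35.3% (30.8 to 39.9), 53.2% (49.6 to 56.8) and 40.4% (36.4 to 44.6). The intervals cover counting error only. The groups did not overlap, and the mean share differed by 31.5 percentage points; no p-value is given for a score over chosen genes. The surface sum changed in make-up too: Tlr4 made 59.3%, 71.0% and 59.5% of it without Dox and 23.3%, 32.7% and 26.6% with Dox, while Tlr1 went from 13.9%, 5.61% and 19.0% to 73.0%, 67.3% and 43.3%. In the libraries with Dox the surface sum was thus mostly Tlr1 or, in replicate 12, Tlr1 more than any other receptor.

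The contrast of the sites depended on which receptors were summed. With all 12 mouse receptor genes, adding Tlr5 at the surface and Tlr8, Tlr11, Tlr12 and Tlr13 in endosomes, the endosomal share came to 56.8%, 49.3% and 60.8% in the libraries without Dox, against 41.1%, 51.4% and 43.0% in those with Dox. The groups then overlapped and the mean difference turned to -10.5 percentage points. Tlr12, which with TLR11 senses a parasite protein, was the most counted of the 5 added genes without Dox: it made 40.4%, 32.2% and 38.2% of all receptor counts without Dox and 5.75%, 5.65% and 5.14% with Dox. With 11 receptors, leaving Tlr12 out, a sum chosen after the data were seen, the share was higher with Dox by 12.2 percentage points.

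**Figure D4:**
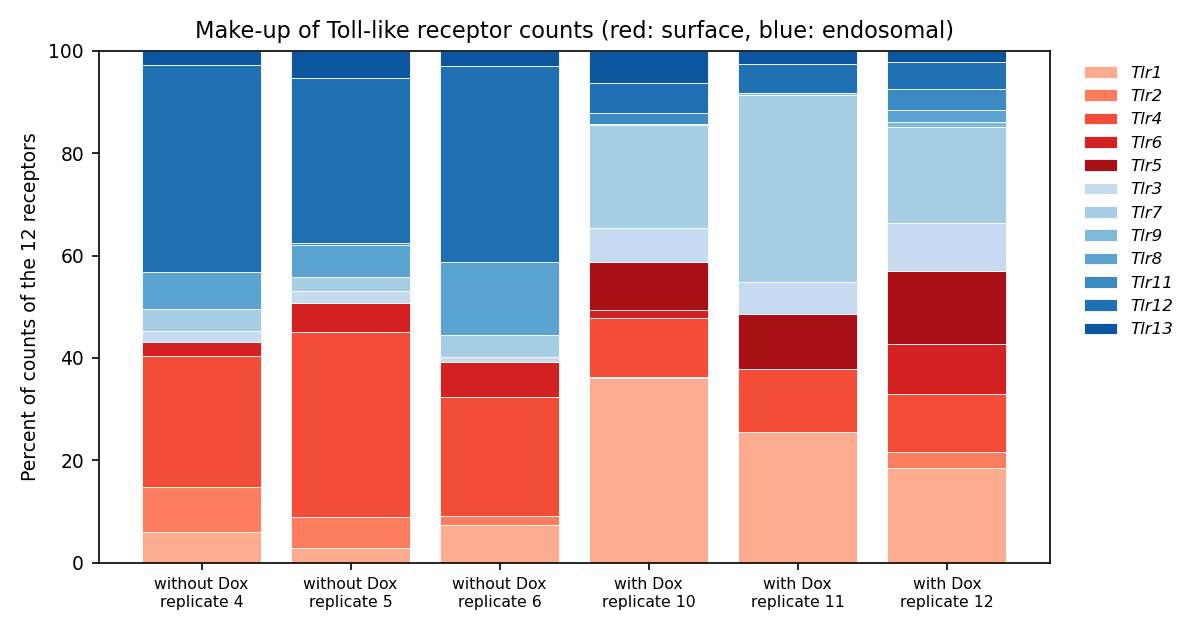
Percent of the counts of 12 Toll-like receptor genes taken by each gene, 1 bar per library, surface receptors in red and endosomal receptors in blue. Tlr12 fills 32.2% to 40.4% of the bars without Dox and 5.14% to 5.75% of those with Dox, where Tlr1 and Tlr7 take the largest parts.

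The order of the receptors differed between the groups. Without Dox the 12 receptors ran, by mean level, Tlr12 (16.0 CPM), Tlr4 (12.2), Tlr8 (4.15), Tlr1 (2.39), Tlr6 (2.29), Tlr2 (2.26), Tlr7 (1.69), Tlr13 (1.60), Tlr3 (0.756) and Tlr11 (0.0676), with Tlr5 and Tlr9 at 0 counts. Tlr12 and Tlr4 overlapped in range with each other, Tlr4 stood apart from Tlr8, and the receptors from Tlr8 to Tlr13 each overlapped their neighbour. With Dox the order was Tlr1 (24.2 CPM), Tlr7 (23.6), Tlr4 (10.99), Tlr5 (10.9), Tlr3 (7.01), Tlr12 (5.13), Tlr6 (3.83), Tlr13 (3.29), Tlr11 (2.04), Tlr2 (1.19), Tlr8 (0.835) and Tlr9 (0.456). There the only gap between neighbours beyond their ranges was that between Tlr7 and Tlr4. The levels compare genes through their 3′ ends, whose annotation may differ in completeness.

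Of the 5 receptors outside the 10 genes, Tlr5, the flagellin receptor, was called higher and Tlr12 lower. Tlr5 had 0 counts in each library without Dox and 7.62, 10.1 and 14.9 CPM with Dox, at least 20.8-fold higher against a floor of 3 counts per library (adjusted p = 0.000315, edgeR); it passed the filter only through the libraries with Dox. Tlr12 had 15.1, 13.8 and 19.2 CPM without Dox and 4.63, 5.35 and 5.40 CPM with Dox, a log2 fold change of -1.64 ± 0.36 (SE; adjusted p = 0.00431, edgeR). Tlr8 had 2.69, 2.63 and 7.12 CPM without Dox and 0, 0 and 2.50 CPM with Dox (adjusted p = 0.226, edgeR), and neither it nor Tlr13 was called. Tlr11 had 0 to 1 counts without Dox and 0 to 33 with Dox and was not tested.

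A list of 70 other genes of the pathway, those 5 receptors included, was followed by role. Of 62 tested, 29 were higher and 6 lower with Dox, and 27 were not called; over all genes tested 23.6% were higher and 22.1% lower. The median log2 fold change was 0.91 against 0.07 over all genes tested. Of the 29, Tlr5, Cd180, Il18r1, Il18rap and Il12b reached the filter's level in 0 libraries without Dox, so they could only be called higher. Il1b reached it in 1 and Slc15a3 in 2 of these libraries, and they too were tested through the libraries with Dox. The genes that fell were Tlr12, Tmed7, Ikbkg, Nfkb1, Tnfaip3 and Socs1, of which the last 2 reached that level in 2 of the 3 libraries with Dox. The list and its roles are described by counts, to be read against the 45.6% of all tested genes that were called, and no enrichment is claimed.

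Of 5 genes of accessory proteins of the surface receptors, 3 were called, all higher, where 23.6% of all tested genes were higher. Cd180, a TLR4 relative of B cells, averaged 0.226 ± 0.392 CPM without Dox and 12.6 ± 5.1 CPM with it (SD, n = 3 per group; adjusted p = 0.00109, edgeR). Its partner Ly86 rose by 2.56 ± 0.31 and the scavenger receptor gene Cd36 by 1.57 ± 0.22 (log2 fold change ± SE). Ly96, the partner of TLR4, and Lbp, the serum protein that binds lipopolysaccharide, were not called (adjusted p = 0.224 and 0.564, edgeR).

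Of 9 trafficking and processing genes, 4 rose and 1 fell, a share called near that of all genes (45.6%). By direction, 23.6% of all tested genes were higher and 22.1% lower. The lysosomal transporter gene Slc15a3 rose by 2.92 ± 0.57 and the protease gene Ctss, cathepsin S, by 2.01 ± 0.17 (log2 fold change ± SE). Tmed7, known for the transport of TLR4, fell, with a log2 fold change of -2.35 ± 0.28 and levels of 42.2 to 47.6 CPM without Dox and 6.72 to 11.2 CPM with Dox. Slc15a4, which endosomal receptors need for signalling in dendritic and B cells, rose by 1.90 ± 0.31.

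Among 5 other adaptor genes, 1 was called, where 45.6% of all tested genes were called. Pik3ap1, which encodes the adaptor BCAP of B cells and macrophages, rose from a mean of 4.10 ± 0.50 to one of 28.6 ± 7.8 CPM (SD, n = 3 per group; adjusted p = 0.000135, edgeR). Tirap, the bridge between MYD88 and TLR2 or TLR4, and Ticam2, which serves TLR4, were not called (adjusted p = 0.158 and 0.3, edgeR), and Sarm1 had 0 to 5 counts and was not tested.

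Downstream, 8 of 15 kinase and ubiquitin signalling genes rose and 1 fell, where 23.6% of all tested genes were higher and 22.1% lower. Irak3, an inhibitory kinase relative, rose by 2.47 ± 0.39 and Irak4, the first kinase to join MYD88, by 1.79 ± 0.34 (log2 fold change ± SE). Ikbkg, the regulatory subunit of the IκB kinase, fell, with a log2 fold change of -1.70 ± 0.40 (adjusted p = 0.00651, edgeR). Traf6, the ubiquitin ligase that follows the kinases, averaged 15.2 ± 4.0 and 8.85 ± 1.48 CPM in the 2 groups (SD, n = 3) and was not called (adjusted p = 0.105).

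Of 7 transcription factor genes, 5 rose and 1 fell, where 23.6% of all tested genes were higher and 22.1% lower. Irf8 rose by 4.15 ± 0.20, Irf5 by 4.04 ± 0.30 and Rel by 3.27 ± 0.30 (log2 fold change ± SE); IRF5 acts downstream of MYD88, and all 3 are known in B cells and myeloid cells. Nfkb1 fell, with a log2 fold change of -1.15 ± 0.30 (adjusted p = 0.0103, edgeR).

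The 8 inhibitor genes split, with 2 higher and 2 lower, a share called near the 45.6% of all tested genes. Otud7b, a deubiquitinase, rose by 1.62 ± 0.20 (log2 fold change ± SE). Socs1 had 23.6, 37.9 and 34.4 CPM without Dox and 11.4, 4.01 and 1.32 CPM with Dox (adjusted p = 0.00737, edgeR), and Tnfaip3, which encodes A20, had 9.998, 11.4 and 8.31 against 5.17, 2.26 and 0.922 CPM (adjusted p = 0.0419). In both genes replicate 12 was the lowest.

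Receptors that share MYD88 and target cytokines completed the list. Of 6 genes of the interleukin-1 family 3 rose: Il18rap by 5.46 ± 0.65, Il18r1 by 3.62 ± 0.83 and Il1r1 by 1.94 ± 0.26 (log2 fold change ± SE). Of 10 target cytokine and enzyme genes only 4 were tested and 2 were called, both higher. Among all genes tested 45.6% were called and 23.6% were higher, the background for the counts of both lists. Il1b had 3.88, 1.013 and 0.848 CPM without Dox and 33.6, 41.0 and 32.8 CPM with Dox, and Il12b, with 0 counts without Dox, was at least 16.1-fold higher against the floor. Il6, Ccl3, Ccl4, Il10, Ptgs2 and Nos2 were too low to be tested, and Tnf and Cxcl2 were not called.

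**Figure D5:**
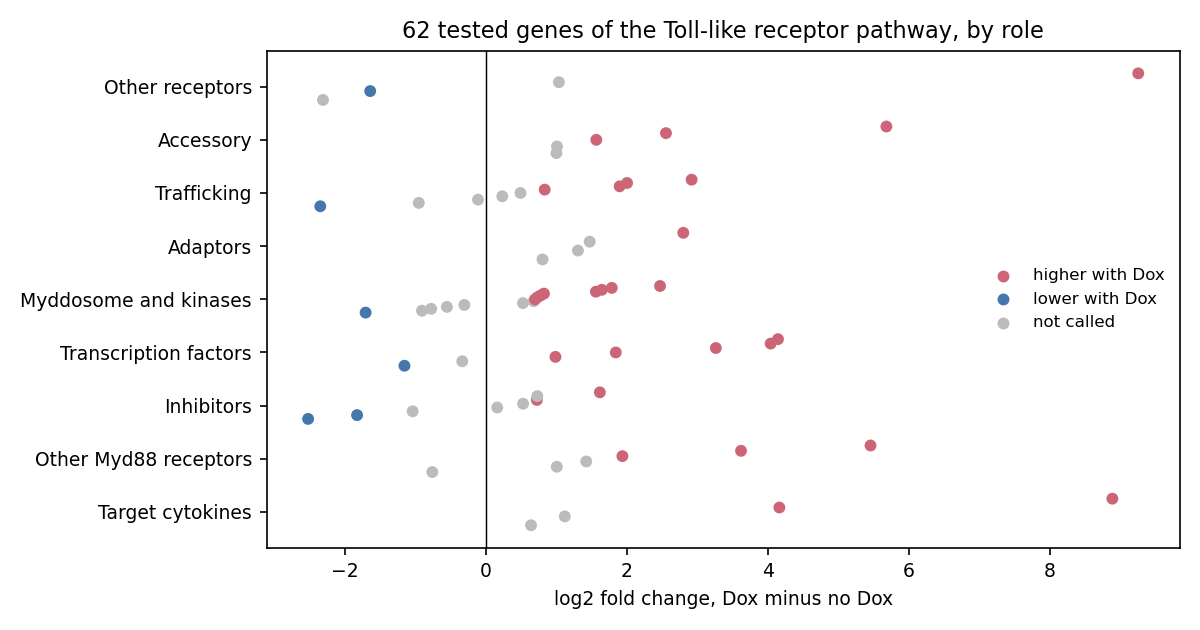
Log2 fold change, Dox minus no Dox, of the 62 tested pathway genes by role, 1 point per gene, red for higher, blue for lower and grey for not called. Most called points lie to the right (29 against 6); the values of Tlr5 and Il12b, which had 0 counts without Dox, are fitted and are not measured folds.

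Genes with the profiles most like those of 3 receptors were found by the Euclidean distance of mean-centred log2(CPM + 0.5) over the 6 libraries, among 7056 tested genes of at least median abundance. Nearest to Tlr7 were Tes, Ckb and Lifr (distances 0.496, 0.598 and 0.617). Nearest to Tlr4 were Rhoj, Ammecr1l and Spg7 (0.245, 0.267 and 0.271), whose groups overlapped. Nearest to Tlr2 were Chrac1, Itgb3bp and Aprt, at larger distances (1.16, 1.33 and 1.37). Each had replicate 12 as the highest library with Dox. Itgb3bp (18.3 to 29.4 against 4.76 to 16.5 CPM) and Aprt (43.9 to 62.1 against 10.5 to 34.8 CPM) were lower with Dox without overlap. The groups of Chrac1 overlapped, as did those of Tlr2. These distances describe 6 libraries in 2 groups.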

How the data were processed

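RNA of 6 spleen samples was made into 3′ mRNA libraries (QuantSeq, forward), per the labels' protocols. The authors deposited raw counts, whole numbers per Entrez gene; STAR, featureCounts and build GRCm38 are named in the submitters' processing notes, with versions, annotation, strand setting and treatment of multi-mapped reads not given in the sources used here. All 6 columns matched a sample by title. RefSeq gene tables (GRCm38.p6) gave symbols to 39374 of 40808 IDs (96.5%).

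Genes passing filterByExpr (minimum count 10, minimum total 15) were fitted in edgeR 4.0.16 (R 4.3.3) with TMM scaling and the quasi-likelihood F-test, without covariates; p-values were adjusted by Benjamini-Hochberg over all tested genes (threshold 0.05). SEs were derived as the fold change divided by the root of F. Sequence overlap of 3′ ends and overlapping genes came from GENCODE M21. Besides GAAANNGAAA and GAGGAAGT, promoter windows were searched for GGGNNNNNCC (50.79% of windows), TGACGTCA (1.79%) and TATAAA (13.62%), which hold no part in the text.

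The 10 genes, the pathway and marker lists and the tests were chosen with earlier results of these data known. Named pathway genes are all of lists of 5 or fewer and the up to 3 largest called changes of longer lists; Nfkb1, Slc15a4, Traf6, Tnf, Cxcl2, the untested cytokines and single markers were named after their values were seen. Profile neighbours were sought for Tlr2, Tlr4 and Tlr7, and not for Tlr9, whose counts were at the floor. Alternatives were other scalings, filters, DESeq2 1.42.0, limma-voom (limma 3.58.1), a threshold of 0.01, genes left out, libraries left out and a transcript length correction.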

Additional observations from a re-analysis of the deposited data

How the results depend on the processing

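No paired analysis was possible because no replicate number occurs in both groups. Removing the trend with transcript length was chosen after seeing the data, as was fitting Cd14 and Tlr9 unfiltered with each library left out. In those fits Cd14 ran from -0.402 to 1.54, turned only without Dox replicate 10, and neither gene was called; Tlr9 had 0 counts without Dox, so its fitted folds are not measured folds and are not given. Tlr2 ran from -4.00 to -0.363 with a library left out and was -2.61 with limma-voom and -2.60 with weights per group. The 5 called members were called with the same sign in each alternative that tested them; requiring 10 counts in every library left 3 members to test (Tlr4, Unc93b1 and Myd88), of which 2 were called in place of 5. Adjusted p-values over the alternatives ran up to 0.0345 for Tlr3, 0.0454 for Myd88 and 0.00732 for Tlr7. Pathway genes called higher ran from 24 to 33 and lower from 4 to 8, within 1.5 times of 29 and 6. Tlr4 turned to 0.158 by library size only, a scaling that shifted the median of all genes by 0.31. Tlr6 turned to -1.57 with limma-voom, -1.55 with limma-voom with weights per group, and from -1.93 to 1.30 with a library left out, the lowest value without Dox replicate 12; the cause was not tested. With all 12 receptors the endosomal share turned to -10.5 percentage points, and with all but Tlr12, chosen after seeing the data, it was 12.2; with equal weight per gene the endosomal receptors gained 1.87 on the log2 scale against the surface receptors; with a library left out the difference was 26.4 to 35.4 percentage points. Scaling by library size only gave 64.3% higher among the genes called, against 51.6%. Tlr9, Cd14, Tlr2 and Tlr6 had few counts in most libraries, which limits the precision of their values; why they were low was not tested.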
